A study of Rattus norvegicus with 18 samples.

Results

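Interferon-stimulated antiviral and GTPase genes were followed in primary rat astrocytes and microglia that met amyloid β-protein (Aβ) fibrils. They were taken as a list of 44 gene symbols of known interferon targets, and 41 of them were among the 17307 genes of the astrocyte tables and among the 17327 genes of the microglia tables. Herc6, Gbp1 and Xaf1 were not analysed here. Of the 41 genes, 39 had enough counts to be tested within each cell type, while Ifit1 and Oas3 stayed near the detection limit.

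The study asked how astrocytes and microglia respond to fibrils of Aβ42 or of Aβ40, each grown from seeds as a homogeneous preparation. Both cell types came from the cortex of Sprague-Dawley rat pups at postnatal day 2, with microglia shaken off mixed glial cultures and astrocytes taken from the layer left behind. Each cell type was left untreated (control), treated with Aβ42 fibrils or treated with Aβ40 fibrils, the fibrils at 25 µM for 24 h, and no transgene or mutant allele is named for any group. There were 3 libraries per group and 18 in all, and the labels do not say whether the 3 came from separate cultures or litters, so the p-values measure only the spread between these libraries.

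Type I interferons are secreted proteins that cells release on sensing foreign or misplaced nucleic acid. They bind the receptor of Ifnar1 and Ifnar2, whose kinases Jak1 and Tyk2 phosphorylate transcription factors, among them Stat2, that join Irf9 to form a complex that binds the interferon-stimulated response element (ISRE) in promoters. Interferon gamma acts through its own receptor, and the element that answers to it is the gamma-activated site (GAS). The genes switched on in this way sense viral RNA, degrade it, stop its translation or trap virus particles, and in glia they are known as part of the response to infection, injury and amyloid.

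Promoter sequences were looked up to show which of these elements lie before the genes described below. The RefSeq promoter table of the rat assembly GRCr8 held 31 of the 41 genes. Both strands of the window from 250 bases before to 50 bases after the start were searched for the core of the ISRE, which is GAAA, any pair of bases and GAAA again, and for TTCNNNGAA, the core of the GAS, which reads the same on both strands. The ISRE core was found in 22 of the 31 promoters (70.97%), against 3.92% of 33469 rat promoters, and the GAS core in 9 (29.03%), against 8.874%. Both cores were found in 7 promoters and neither in 7. The 250 bases before the start are shown for 4 genes with different contents, with each core, read on either strand, in capitals. Rsad2 (chr6:48788121-48788370, minus strand) has the ISRE core alone, Ifi47 (chr10:33798494-33798743, plus strand) has 2 GAS cores and no ISRE core, Ifitm3 (chr1:205541759-205542008, minus strand) has both, and Oasl (chr12:47356293-47356542, minus strand) has neither.
Rsad2: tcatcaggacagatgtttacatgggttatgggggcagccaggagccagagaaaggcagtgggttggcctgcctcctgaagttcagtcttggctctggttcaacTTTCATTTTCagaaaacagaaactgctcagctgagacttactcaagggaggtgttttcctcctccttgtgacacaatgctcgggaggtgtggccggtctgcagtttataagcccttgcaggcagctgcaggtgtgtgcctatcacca
Ifi47: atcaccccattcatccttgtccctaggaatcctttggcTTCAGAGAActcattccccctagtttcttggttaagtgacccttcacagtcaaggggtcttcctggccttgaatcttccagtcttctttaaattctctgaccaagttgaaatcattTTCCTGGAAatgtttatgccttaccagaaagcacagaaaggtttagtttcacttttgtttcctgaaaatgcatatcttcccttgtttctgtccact
Ifitm3: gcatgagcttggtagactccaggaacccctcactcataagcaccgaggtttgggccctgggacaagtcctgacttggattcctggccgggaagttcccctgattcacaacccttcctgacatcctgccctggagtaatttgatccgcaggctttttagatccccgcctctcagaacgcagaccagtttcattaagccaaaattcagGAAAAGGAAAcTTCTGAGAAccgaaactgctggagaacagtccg
Oasl: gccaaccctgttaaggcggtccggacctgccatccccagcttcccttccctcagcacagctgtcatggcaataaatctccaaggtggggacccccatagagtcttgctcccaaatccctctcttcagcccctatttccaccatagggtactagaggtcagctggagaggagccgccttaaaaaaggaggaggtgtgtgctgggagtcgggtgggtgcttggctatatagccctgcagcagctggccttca
A core found by its letters is a description of the sequence and not a measured binding site.

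Counts on genes ranged from 3674043 to 19013919 in the 9 astrocyte libraries and from 2271834 to 22274367 in the 9 microglia libraries, so that 3 counts, taken as the detection limit, correspond to 0.158 to 0.817 and 0.135 to 1.32 CPM before scaling. CPM are counts per 1000000 counts on genes, and levels below are scaled CPM, for which the library total was corrected for composition over all 18 libraries. These limits cover counting error only. The summed level of 10 astrocyte markers was 8409 to 10234 CPM in control astrocytes. It was lower in treated astrocytes, at 5405 to 5770 with Aβ42 and 5977 to 6418 with Aβ40 fibrils. The microglia libraries had 263 to 320. The summed level of 12 microglial markers was 443 to 529 CPM in control astrocyte cultures, 159 to 170 with Aβ42 and 137 to 148 with Aβ40 fibrils, against 9650 to 11050 in control microglia and 2723 to 4204 in treated microglia, and none of the 12 was at 0 in any group. Reads of microglial marker genes were thus present in the astrocyte libraries, and there were fewer of them in the treated groups, where the genes described below were higher. In bulk samples, fewer cells of a type and less RNA per cell cannot be told apart. Among the control microglia, replicate 2 had the lowest level of 37 of the 39 tested genes, and results that rest on it are given with and without it.

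**Figure D1:**
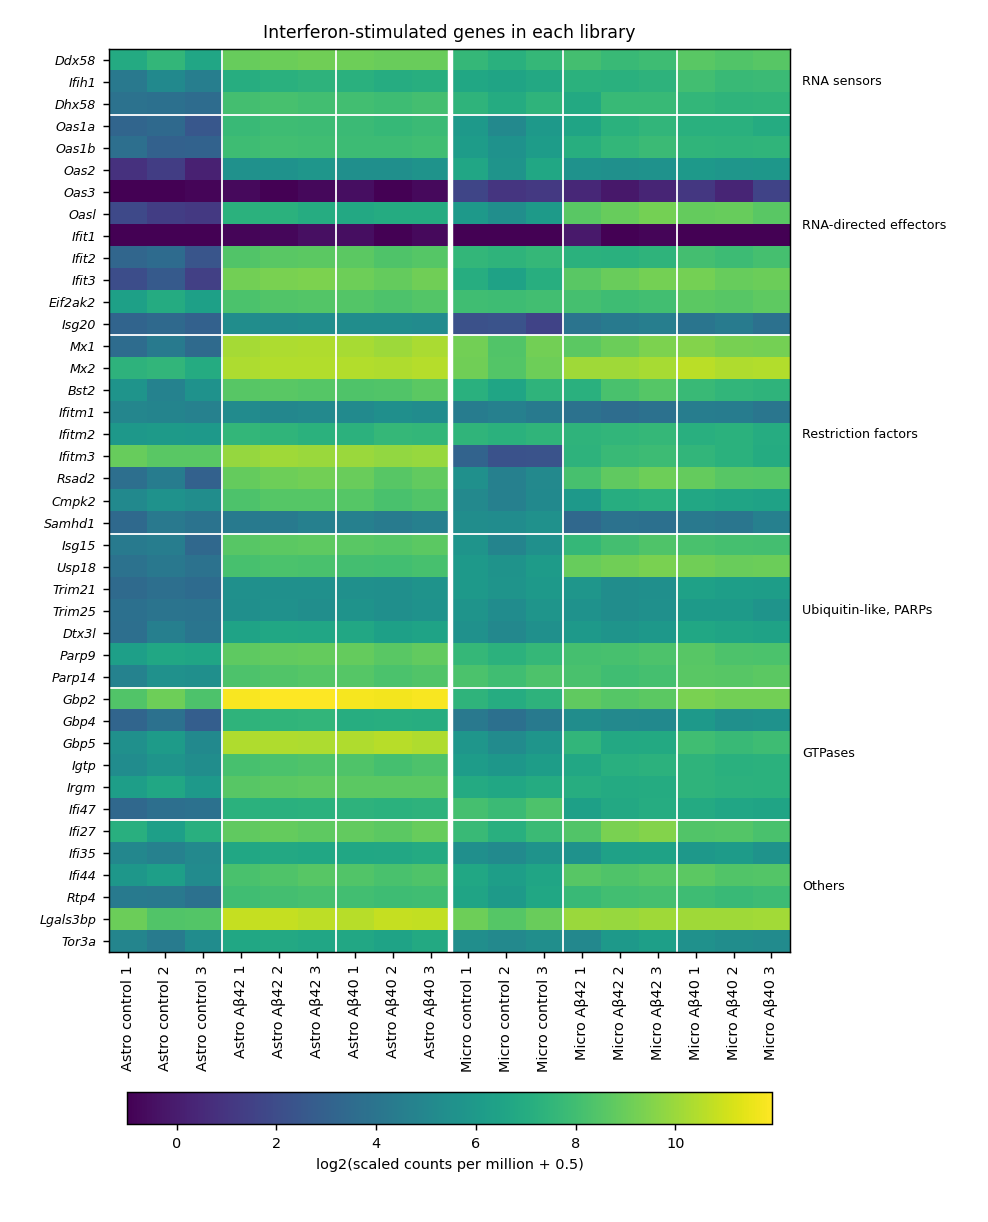
Levels of the 41 interferon-stimulated genes (rows, grouped by role) in the 18 libraries (columns, grouped by cell type and treatment), as log2 of scaled CPM plus 0.5. Colours are to be read along a row and not between genes, since genes differ in length. Nearly every row brightens from control to treated astrocytes, whereas control microglia begin brighter in most rows and change less, and Ifi47, Samhd1 and Oas2 darken in treated microglia.

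Astrocytes raised nearly the whole list with both fibrils. With Aβ42 fibrils, 37 of the 39 tested genes were higher than in control at an adjusted p under 0.05 and 0 were lower (16.5% of all 11690 tested genes were higher and 20.4% were lower), and the other two were Ifitm1 and Samhd1. With Aβ40 fibrils all 39 were higher and 0 were lower (background 14.9% and 18.4%), and 0 were lower at an unadjusted p under 0.05 or with DESeq2 for either fibril. A rise of 5-fold or more was found for 24 genes with Aβ42 (background 3.03%) and 25 with Aβ40 (2.82%). The median log2 change of the genes was 3.09 with Aβ42 and 3.03 with Aβ40 fibrils, where the medians of all tested genes were -0.0047 and 0.0017. For all 39 genes, every treated library of either fibril was above every control library (background 22.7% and 21.9%). The 2 comparisons share the control libraries and are therefore not independent of each other. Summed over the 41 genes, the median library rose from 2664 CPM in control to 19352 with Aβ42 and 18425 with Aβ40 fibrils.

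Microglia changed the list less and mostly upwards, with a smaller share of falls than among all tested genes. With Aβ42 fibrils 26 of 39 genes were higher and 5 were lower (background 27.1% and 26.6% of 10837 tested genes), and with Aβ40 fibrils 28 were higher and 2 were lower (background 19.6% and 21.4%). Rises of 5-fold or more were limited to 6 genes with Aβ42 (background 3.69%) and 5 with Aβ40 (3.36%). The median log2 change was 0.97 with Aβ42 and 1.19 with Aβ40 fibrils, against 0.0096 and 0.0054 for all tested genes. Every treated library was above every control library for 23 genes with Aβ42 (background 25.8%) and 31 with Aβ40 (29%), and below for 5 (28.2%) and 2 (30.5%). The summed level went from a median of 5497 CPM in control to 10047 with Aβ42 and 10832 with Aβ40 fibrils. Without control replicate 2, 23 and 26 genes were higher and 6 and 3 were lower, and without Aβ42 replicate 1, which held 2613723 counts against 22274367 and 17687416 in replicates 2 and 3, 4 genes rather than 2 were lower with Aβ40 fibrils.

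The sensors of viral RNA are Ddx58 (RIG-I), Ifih1 (MDA5) and Dhx58 (LGP2), helicases that recognise viral RNA in the cytoplasm. All 3 were higher in treated astrocytes with either fibril (background 16.5% with Aβ42 and 14.9% with Aβ40). Dhx58 stood at 14.4, 13.2 and 11.4 CPM in control astrocytes, 272, 284 and 261 with Aβ42 and 258, 244 and 272 with Aβ40 fibrils, which is a log2 change of 4.39 ± 0.14 (SE, adjusted p = 4.67e-09) and 4.31 ± 0.14 (adjusted p = 5.77e-09). The treated and control libraries lay far apart. In microglia Dhx58 was already at 171, 124 and 172 CPM in control and was at 118, 209 and 213 with Aβ42 and 190, 170 and 179 with Aβ40 fibrils. These libraries overlapped, and the log2 changes of 0.20 ± 0.19 did not pass the test with either fibril (adjusted p = 0.385 and 0.437), although without Aβ42 replicate 1 the change with Aβ42 was 0.39 (adjusted p = 0.0056). Ddx58 rose in astrocytes from 120, 188 and 100 CPM to 493, 527 and 556 with Aβ42 (log2 change 1.93 ± 0.20, adjusted p = 2.07e-05) and to 552, 502 and 504 with Aβ40 fibrils (1.92 ± 0.20, adjusted p = 2.37e-05). In microglia it rose by 0.40 ± 0.14 with Aβ42 (adjusted p = 0.0256) and 1.04 ± 0.14 with Aβ40 fibrils (adjusted p = 6.75e-05), the former losing its call without control replicate 2 (adjusted p = 0.0909) or Aβ42 replicate 3 (0.0505). Ifih1 had the largest rise of the 3 in microglia, from 105, 93.7 and 111 CPM to 155, 149 and 167 with Aβ42 (0.59 ± 0.11, adjusted p = 0.00069) and 257, 222 and 227 with Aβ40 fibrils (1.19 ± 0.11, adjusted p = 3e-06). Its promoter holds an ISRE core, and its 3 groups of microglia libraries did not overlap.

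The effectors directed at RNA include the oligoadenylate synthetases, which make the signal that activates the ribonuclease RNase L, the Ifit proteins, which bind foreign RNA, the kinase Eif2ak2 (PKR), which stops translation, and the exonuclease Isg20. All 8 tested genes of this group rose in astrocytes with both fibrils, with log2 changes of 1.79 to 7.48 with Aβ42 and 1.83 to 7.21 with Aβ40. The background in astrocytes was 16.5% higher with Aβ42 and 14.9% with Aβ40. In microglia 5 of the 8 rose and 1 fell with Aβ42 (background 27.1% and 26.6%), and 7 were higher and 0 were lower with Aβ40 fibrils (19.6% and 21.4%). Ifit3 had the largest rise of the whole list in astrocytes, from 3.66, 5.84 and 2.21 CPM to 578, 646 and 665 with Aβ42 (log2 change 7.48 ± 0.28, adjusted p = 1.29e-08) and to 542, 466 and 558 with Aβ40 fibrils (7.21 ± 0.28, adjusted p = 1.68e-08). In microglia Ifit3 began at 132, 86.5 and 137 CPM and reached 400, 505 and 599 with Aβ42 and 606, 492 and 523 with Aβ40 fibrils. Treated libraries of the cell types therefore overlapped for Ifit3 where control libraries did not. Ifit2 rose in astrocytes from 9.16, 11 and 4.75 CPM to 339, 392 and 414 with Aβ42 and 407, 337 and 375 with Aβ40 fibrils (log2 changes 5.61 ± 0.27 and 5.58 ± 0.27). In microglia Ifit2 was at 192, 171 and 195 CPM in control, 152, 151 and 169 with Aβ42 and 269, 234 and 276 with Aβ40 fibrils. All Aβ42 libraries lay below and all Aβ40 libraries above the control libraries, with a log2 difference from control of -0.26 ± 0.11 that missed the threshold with Aβ42 (adjusted p = 0.0586, and 0.0225 without Aβ42 replicate 1) and of 0.48 ± 0.11 with Aβ40 fibrils (adjusted p = 0.0034).

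Oasl, an oligoadenylate synthetase-like protein, rose most among the RNA-directed effectors of microglia. It went from 63.1, 42.1 and 66.4 CPM to 403, 484 and 601 with Aβ42 (log2 change 3.09 ± 0.19, adjusted p = 5.63e-08) and 480, 490 and 398 with Aβ40 fibrils (2.99 ± 0.19, adjusted p = 1.01e-07). In astrocytes it went from 3.14, 2.02 and 1.69 CPM to 152, 156 and 128 with Aβ42 (6.10 ± 0.22, adjusted p = 8.78e-09) and 112, 124 and 124 with Aβ40 fibrils (5.83 ± 0.21, adjusted p = 1.23e-08). Treated microglia remained above treated astrocytes in every library. Neither core was found in the Oasl promoter shown above. Oas2 went the opposite way in microglia, from 99.8, 51.2 and 104 CPM to 48.5, 43.9 and 47.3 with Aβ42 (-0.90 ± 0.21, adjusted p = 0.00368) and 61.8, 55.2 and 57.7 with Aβ40 fibrils (-0.55 ± 0.22, adjusted p = 0.0619). All Aβ42 libraries were below the control libraries, control replicate 2 lay between the Aβ42 and the Aβ40 libraries, and without it the log2 change with Aβ40 was -0.79 (adjusted p = 0.00041), which also passed the test without Aβ42 replicate 1 (-0.57, adjusted p = 0.0208). In astrocytes Oas2 rose from 1.31, 2.02 and 0.651 CPM to 46.4, 47.3 and 54.7 with Aβ42 (5.47 ± 0.28, adjusted p = 1.24e-07) and 42.7, 43.4 and 50 with Aβ40 fibrils (5.36 ± 0.28, adjusted p = 1.59e-07). Oas1a and Oas1b rose in both cell types, by 4.70 to 4.89 on the log2 scale in astrocytes and 1.40 to 1.52 in microglia, but they are close copies and how reads that match both were divided is not given in the sources used here. Eif2ak2 had the smallest rise of the group in astrocytes, from 81.9, 124 and 80.2 CPM to 305, 348 and 353 with Aβ42 and 358, 321 and 352 with Aβ40 fibrils (1.79 ± 0.17 and 1.83 ± 0.17). Isg20 rose by 2.17 and 2.16 in astrocytes and by 2.40 and 2.19 in microglia. Oas3 did not exceed 0.199 CPM in any astrocyte library or 2.75 CPM in any microglia library, and Ifit1 did not exceed 0.437 CPM in any library.

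The genes that restrict virus entry, assembly and nucleotide supply held the largest rise of the list in microglia and, with Aβ42 fibrils, the largest fall. With Aβ42 fibrils 7 of the 9 were higher in astrocytes (background 16.5%), and 5 were higher and 2 lower in microglia (27.1% and 26.6%). With Aβ40 fibrils 9 were higher in astrocytes (14.9%), and 4 were higher and 1 lower in microglia (19.6% and 21.4%). Ifitm3, a membrane protein that limits virus entry, was at 8.12, 4.32 and 4.55 CPM in control microglia and rose to 163, 217 and 234 with Aβ42 (log2 change 5.11 ± 0.24, adjusted p = 5.66e-09) and 184, 155 and 125 with Aβ40 fibrils (4.72 ± 0.24, adjusted p = 1.47e-08). No control library came near a treated library. In astrocytes Ifitm3 was at 494, 399 and 397 CPM in control, 939, 1084 and 1004 with Aβ42 and 1030, 926 and 996 with Aβ40 fibrils, a log2 change of 1.21 ± 0.12 and 1.18 ± 0.12. Microglia thus stayed below astrocytes in every library. Its relative Ifitm2 had log2 changes of 1.45 and 1.52 in astrocytes and of 0.12 (adjusted p = 0.357) and -0.24 (adjusted p = 0.101, and 0.0312 without Aβ42 replicate 1) in microglia. Ifitm1 in microglia went from 21.2, 24.8 and 19.6 CPM to 14.4, 11.6 and 13.5 with Aβ42 (-0.78 ± 0.16, adjusted p = 0.00138) and 22, 21.5 and 16.2 with Aβ40 fibrils (-0.10 ± 0.17, adjusted p = 0.67). The fall with Aβ42 was -0.47 (adjusted p = 0.153) when every library was thinned to the smallest of its cell type. In astrocytes Ifitm1 was at 29.8, 28.5 and 25.4 CPM in control, 37.3, 31.9 and 33.3 with Aβ42 and 36, 42.6 and 38.3 with Aβ40 fibrils, with log2 changes of 0.28 ± 0.14 (adjusted p = 0.145) and 0.48 ± 0.14 (adjusted p = 0.0212). The second of these missed the threshold without control replicate 3, Aβ40 replicate 2 or Aβ40 replicate 3 (adjusted p = 0.0534, 0.0838 and 0.0592). The Ifitm genes are similar in sequence, so part of their counts could be shared.

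Mx1 and Mx2 are dynamin-like GTPases that block the replication of many viruses. Mx1 rose in astrocytes from 11.3, 19.8 and 10.8 CPM to 1188, 1286 and 1345 with Aβ42 (log2 change 6.52 ± 0.23, adjusted p = 9.85e-09) and 1221, 1064 and 1277 with Aβ40 fibrils (6.43 ± 0.23, adjusted p = 1.09e-08). Microglia held Mx1 at 578, 343 and 586 CPM in control, 416, 527 and 667 with Aβ42 and 755, 634 and 606 with Aβ40 fibrils. The Aβ42 libraries overlapped with control and the Aβ40 libraries were all higher, but neither log2 change passed the test (0.08 ± 0.20, adjusted p = 0.767, and 0.40 ± 0.20, adjusted p = 0.139), and without Aβ42 replicate 1 the change with Aβ40 had an adjusted p of 0.045. Mx2 rose in both cell types, by 3.09 and 3.13 in astrocytes and by 1.20 and 1.55 in microglia. Rsad2 (viperin), which makes a nucleotide that ends viral RNA chains, rose in microglia from 44.3, 24.6 and 33.7 CPM to 294, 447 and 545 with Aβ42 (3.62 ± 0.24, adjusted p = 1.47e-07) and 477, 377 and 371 with Aβ40 fibrils (3.56 ± 0.25, adjusted p = 2.12e-07). In astrocytes it rose from 12.6, 21.3 and 7.68 CPM to 470, 546 and 582 with Aβ42 (5.32 ± 0.32) and 507, 376 and 461 with Aβ40 fibrils (5.07 ± 0.32), so that treated libraries of both cell types reached overlapping levels. Cmpk2, the nucleotide kinase encoded on chromosome 6 beside Rsad2, rose by 3.10 and 3.03 in astrocytes and by 1.90 and 1.65 in microglia. Bst2 (tetherin), which holds virus particles on the cell surface, rose by 3.16 and 3.11 in astrocytes, and in microglia the log2 changes were 0.97 (adjusted p = 0.0101) and 0.47 (adjusted p = 0.198, and 0.0187 without Aβ42 replicate 1). Samhd1, which breaks down the nucleotides needed for reverse transcription, fell in microglia from 40.3, 39.1 and 46.9 CPM to 10, 14.5 and 13.3 with Aβ42 (-1.69 ± 0.16, adjusted p = 3.43e-06) and 18, 16.2 and 24.3 with Aβ40 fibrils (-1.15 ± 0.17, adjusted p = 0.000198). In astrocytes Samhd1 was at 10.2, 18.2 and 14.5 CPM in control, 19.1, 19.9 and 24.3 with Aβ42 and 24.5, 20.5 and 24.4 with Aβ40 fibrils, and the log2 changes were 0.52 ± 0.20 (adjusted p = 0.0592, and 0.00848 without control replicate 2) and 0.66 ± 0.19 (adjusted p = 0.0223). The latter missed the threshold without control replicate 1, Aβ40 replicate 1 or Aβ40 replicate 3 (adjusted p = 0.0593, 0.0632 and 0.0779).

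**Figure D2:**
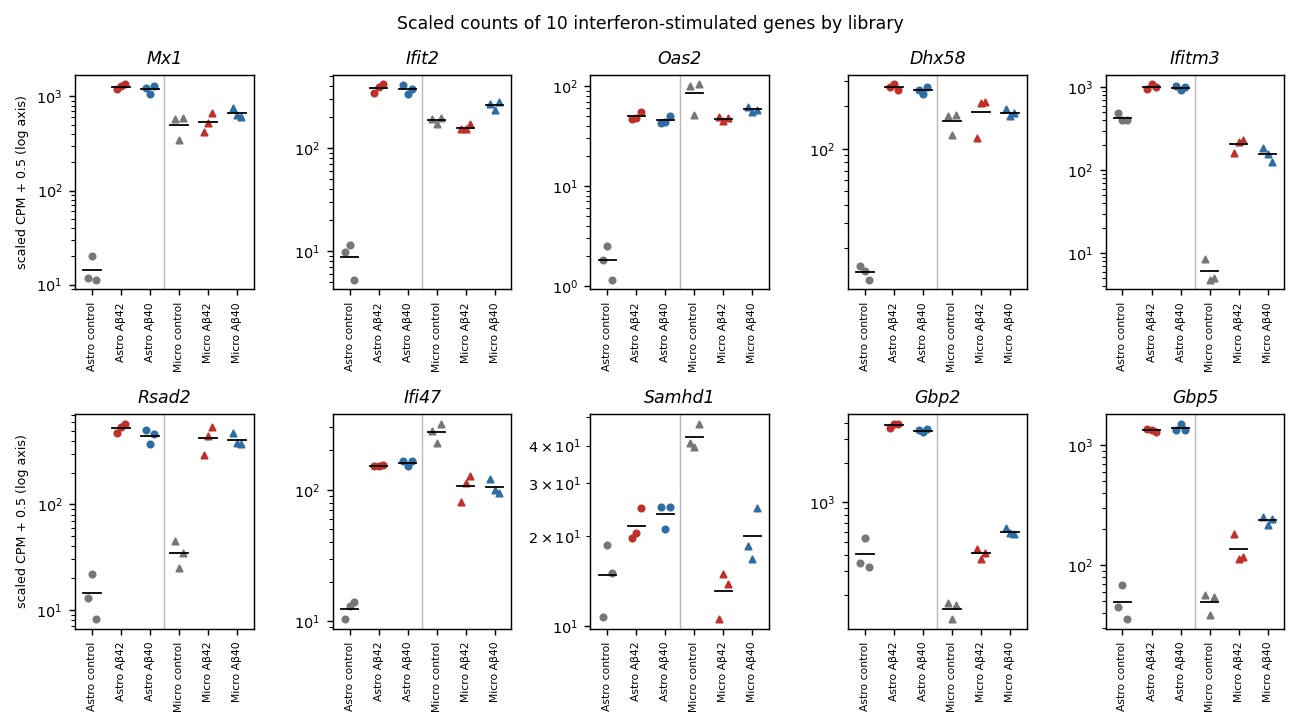
Scaled CPM plus 0.5, on log axes, of 10 interferon-stimulated genes in each library, with astrocytes as circles, microglia as triangles, grey for control, red for Aβ42, blue for Aβ40 fibrils and a black line at the group mean. Mx1, Ifit2, Oas2 and Dhx58 rise in astrocytes from levels far below those of control microglia, Ifitm3 rises in microglia from 4.32 to 8.12 CPM, and Ifi47 and Samhd1 fall in microglia.

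Isg15, a ubiquitin-like modifier, and the enzymes that act with it or attach ubiquitin or ADP-ribose all rose in astrocytes, 7 of 7 with each fibril. The background in astrocytes was 16.5% higher with Aβ42 and 14.9% with Aβ40. In microglia 4 were higher and 1 was lower with Aβ42 (background 27.1% and 26.6%), and 6 were higher with Aβ40 fibrils (19.6%). Isg15 rose in astrocytes from 19.1, 22.2 and 9.96 CPM to 387, 416 and 423 with Aβ42 (log2 change 4.62 ± 0.25, adjusted p = 1.77e-07) and 393, 372 and 407 with Aβ40 fibrils (4.56 ± 0.25, adjusted p = 2.15e-07), and by 2.66 and 2.76 in microglia. Usp18, the protease that removes Isg15 and dampens signalling from the interferon receptor, had the largest rise of the group in microglia, from 60.5, 50.1 and 68.3 CPM to 485, 563 and 656 with Aβ42 (3.23 ± 0.14, adjusted p = 4.25e-09) and 561, 503 and 527 with Aβ40 fibrils (3.15 ± 0.14, adjusted p = 5.83e-09). Its treated microglia libraries were above the treated astrocyte libraries, which were at 284, 315 and 303 CPM with Aβ42 and 267, 259 and 289 with Aβ40 fibrils after a rise from 14.1, 17.7 and 14.2. The ubiquitin ligase Trim21, an intracellular antibody receptor, was at 60.8, 51.6 and 62.6 CPM in control microglia, 54.6, 40.3 and 43.5 with Aβ42 (-0.39 ± 0.14, adjusted p = 0.0327) and 83.3, 76.2 and 72.3 with Aβ40 fibrils (0.41 ± 0.14, adjusted p = 0.036). Each of these small changes lost its call when some libraries were left out, with an adjusted p of 0.127 for Aβ42 without control replicate 1, 0.141 without control replicate 3, 0.165 and 0.116 without Aβ42 replicates 2 and 3 and 0.0501 without Aβ40 replicate 2, and for Aβ40 of 0.0635 and 0.104 without control replicates 1 and 2 and 0.138, 0.0829 and 0.0567 without Aβ40 replicates 1, 2 and 3. Trim25, the ligase that activates RIG-I, had the smallest rise in astrocytes, from 13.3, 15 and 14.6 CPM to 43, 46.5 and 42.3 with Aβ42 (1.59 ± 0.13) and 50.3, 42.5 and 47.3 with Aβ40 fibrils (1.68 ± 0.13). Dtx3l and Parp9, partner proteins encoded next to each other on chromosome 11, rose by 2.48 and 2.26 in astrocytes with Aβ42 and by 2.41 and 2.23 with Aβ40 fibrils. In microglia they rose by 0.47 and 0.67 with Aβ42 and by 1.22 and 0.87 with Aβ40 fibrils, the rise of Dtx3l with Aβ42 losing its call without control replicate 2 (adjusted p = 0.0628) or Aβ42 replicate 3 (0.0532), and standing at 0.29 (adjusted p = 0.321) when every library was thinned to the smallest of its cell type. Parp14 rose by 3.14 and 3.12 in astrocytes, and in microglia had log2 changes of -0.12 (adjusted p = 0.429) and 0.44 (adjusted p = 0.0106).

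The guanylate-binding proteins and immunity-related GTPases assemble on the membranes of vacuoles that hold intracellular pathogens. All 6 rose in astrocytes with both fibrils (background 16.5% with Aβ42 and 14.9% with Aβ40). In microglia 4 rose with Aβ42 (27.1%) and 5 with Aβ40 (19.6%), and Ifi47 fell with both (26.6% and 21.4%). Gbp5, which also promotes inflammasome assembly, had the largest rise of the group in astrocytes, from 44.7, 67.4 and 35.2 CPM to 1356, 1342 and 1287 with Aβ42 (log2 change 4.75 ± 0.22, adjusted p = 6.02e-08) and 1335, 1514 and 1337 with Aβ40 fibrils (4.83 ± 0.22, adjusted p = 6.6e-08). In microglia it rose from 55.7, 37.8 and 54.1 CPM to 181, 111 and 117 with Aβ42 (1.43 ± 0.21, adjusted p = 0.000107) and 253, 215 and 243 with Aβ40 fibrils (2.26 ± 0.21, adjusted p = 3.09e-06). Control libraries of the cell types overlapped for Gbp5. Gbp2, used as a marker of reactive astrocytes, rose in astrocytes from 349, 538 and 323 CPM to 3631, 3939 and 3942 with Aβ42 (3.23 ± 0.19, adjusted p = 2.56e-07) and 3506, 3401 and 3566 with Aβ40 fibrils (3.10 ± 0.18, adjusted p = 3.76e-07). In microglia it rose from 171, 130 and 166 CPM to 446, 375 and 411 with Aβ42 (1.38 ± 0.13, adjusted p = 2.38e-06) and 639, 585 and 575 with Aβ40 fibrils (1.94 ± 0.13, adjusted p = 1.62e-07). Gbp2 was lower in microglia than in astrocytes in every library of the same treatment. Gbp4 rose by 4.22 and 3.85 in astrocytes and by 1.04 and 1.59 in microglia, and Igtp by 2.82 with each fibril in astrocytes and by 1.03 and 1.24 in microglia. Irgm rose from 74.8, 103 and 62.1 CPM to 383, 405 and 422 with Aβ42 (2.32 ± 0.17) and 417, 406 and 410 with Aβ40 fibrils (2.35 ± 0.17) in astrocytes, and in microglia had log2 changes of 0.09 (adjusted p = 0.511) and 0.47 (adjusted p = 0.00534).

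Ifi47 (also named Irg47), another immunity-related GTPase, moved in opposite directions in the cell types. In astrocytes it rose from 9.94, 12.6 and 13.5 CPM to 151, 150 and 155 with Aβ42 (log2 change 3.61 ± 0.14, adjusted p = 1.76e-08) and 165, 151 and 164 with Aβ40 fibrils (3.69 ± 0.14, adjusted p = 1.68e-08). In microglia it fell from 280, 226 and 318 CPM to 80.8, 112 and 128 with Aβ42 (-1.36 ± 0.17, adjusted p = 2.93e-05) and 121, 99.2 and 93.6 with Aβ40 fibrils (-1.39 ± 0.17, adjusted p = 3.88e-05). No control library overlapped with a treated library in either cell type. Ifi47 and Samhd1, the genes that fell in microglia with both fibrils, were also the 2 genes with a GAS core and no ISRE core in the promoter searched, which was noticed after the values were seen. The 7 genes with both cores, Oas1a, Oas1b, Bst2, Ifitm3, Parp14, Igtp and Irgm, were each higher in microglia with at least 1 fibril. Of the genes called lower with Aβ42 alone, Trim21 has 2 ISRE cores, and the promoters of Oas2 and Ifitm1 were not among the 31 searched. The 21 tested genes with an ISRE core had median log2 changes in microglia of 1.09 for Aβ42 and 1.24 for Aβ40 fibrils, while 0.67 and 0.46 were the medians of the 7 with neither core. No test was made of these medians. In astrocytes the medians were 2.54 and 2.50 with an ISRE core and 2.26 and 2.23 with neither.

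The other interferon-stimulated genes on the list all rose in astrocytes with both fibrils (background 16.5% with Aβ42 and 14.9% with Aβ40). In microglia 6 of 6 rose with Aβ42 (27.1%) and 4 with Aβ40 fibrils (19.6%). Rtp4, a chaperone of membrane receptors that also restricts viruses, rose most in astrocytes, from 18.8, 18.6 and 13.7 CPM to 255, 270 and 287 with Aβ42 (log2 change 3.99 ± 0.15, adjusted p = 1.31e-08) and 265, 242 and 255 with Aβ40 fibrils (3.91 ± 0.15, adjusted p = 1.64e-08). Ifi44 rose most in microglia, from 103, 76.2 and 97.3 CPM to 389, 336 and 365 with Aβ42 (1.96 ± 0.13, adjusted p = 1.77e-07) and 404, 344 and 353 with Aβ40 fibrils (1.99 ± 0.14, adjusted p = 1.96e-07). All treated libraries were above all control libraries for both genes. Tor3a, a torsin-family protein of the endoplasmic reticulum, changed least, from 29.6, 20.4 and 39.4 CPM in control astrocytes to 103, 113 and 100 with Aβ42 (1.77 ± 0.21) and 109, 89.4 and 116 with Aβ40 fibrils (1.77 ± 0.21). In microglia Tor3a was at 41, 33.2 and 41 CPM in control, 32.3, 64.4 and 78.8 with Aβ42 (0.64 ± 0.22, adjusted p = 0.0305) and 45.7, 40.7 and 36.9 with Aβ40 fibrils (0.10 ± 0.24, adjusted p = 0.77). The libraries overlapped, and the call with Aβ42 was lost without any 1 of control replicates 1, 2 and 3 (adjusted p = 0.0568, 0.0998 and 0.0565) or of Aβ42 replicates 2 and 3 (0.0845 and 0.171). Ifi27, Ifi35 and Lgals3bp had log2 changes of 1.80 to 2.03 in astrocytes. In microglia Lgals3bp rose by 1.09 and 1.22, Ifi27 by 1.55 and 0.76, and Ifi35 by 0.77 with Aβ42, with 0.46 (adjusted p = 0.0888, and 0.0046 without Aβ42 replicate 1) for Aβ40 fibrils. The rise of Ifi27 with Aβ40 lost its call without control replicate 2 (adjusted p = 0.0805) or Aβ40 replicate 1 or 2 (0.0668 and 0.0721).

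The response itself differed between the cell types, as tested by an interaction term over all 18 libraries. With Aβ42 fibrils the log2 change was smaller in microglia than in astrocytes, or of opposite sign, for 35 of 40 genes and larger for 1, where 17.9% and 19.3% of 11581 tested genes differed in these directions. With Aβ40 fibrils it was smaller for 36 and larger for 1 (background 16.5% and 16%). Over the 39 genes other than Oas3, whose astrocyte values were at the detection limit, the median difference between the changes was -1.95 with Aβ42 and -1.60 with Aβ40 fibrils, against 0.04 and 0.01 for all tested genes. Ifitm3 was the 1 gene whose larger rise in microglia passed this test, by 3.90 ± 0.27 with Aβ42 (adjusted p = 3.13e-09) and 3.53 ± 0.28 with Aβ40 fibrils (adjusted p = 1.42e-08). The differences with the smallest p-values with Aβ42 were those of Ifit2 (-5.89 ± 0.28, adjusted p = 1.39e-11), Ifi47 (-4.98 ± 0.24), Mx1 (-6.45 ± 0.33), Oas2 (-6.39 ± 0.39) and Ifit3 (-5.44 ± 0.34). With Aβ40 fibrils they were those of Ifi47 (-5.09 ± 0.24, adjusted p = 2.39e-11), Ifit2 (-5.14 ± 0.27), Mx1 (-6.05 ± 0.33), Dhx58 (-4.13 ± 0.27) and Oas2 (-5.94 ± 0.40). Isg20 and Ifi44 did not pass this test with either fibril, at differences of 0.21 (adjusted p = 0.599) and -0.60 (0.0865) with Aβ42 and 0.01 (0.992) and -0.53 (0.143) with Aβ40 fibrils. The microglial markers, summed, went down in the cultures of both cell types, and their part in these differences was not tested.

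**Figure D3:**
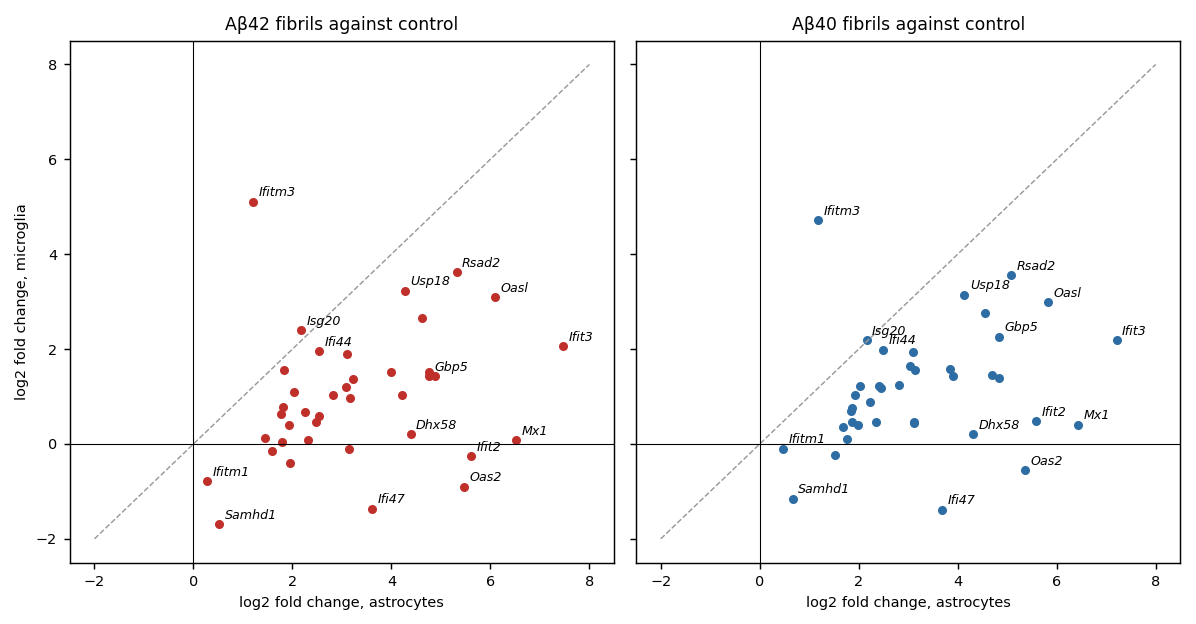
Log2 fold change against control in astrocytes (horizontal axis) and microglia (vertical axis) for the 39 tested interferon-stimulated genes, with Aβ42 on the left, Aβ40 on the right and a dashed line of equal change. Nearly all points lie below the line, Ifitm3 lies far above it, and Ifi47, Samhd1 and Oas2 are among the genes that lie below 0 in microglia.

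Before treatment, microglia had higher levels than astrocytes of most of these genes. Each cell type was a separate set of cultures and libraries, so cell type and any difference in handling or sequencing cannot be told apart. Control microglia were higher than control astrocytes for 32 of 40 genes and lower for 4 (background 34.2% and 34.5%), and 28 of the 40 did not overlap above the astrocyte libraries and 4 below them (34.5% and 32.6%). The difference was 5-fold or more for 12 of the 39 genes other than Oas3 (background 8.56%). Oas3 was at 0, 0 and 0.0651 CPM in astrocytes and 2.75, 1.51 and 1.69 in microglia. The median log2 difference over the 39 genes other than Oas3 was 1.41. It was largest for Oas2 (6.30 ± 0.32, adjusted p = 2.24e-12), followed by Mx1 (5.21 ± 0.26), Ifit3 (5.11 ± 0.28), Oasl (4.79 ± 0.25) and Ifit2 (4.61 ± 0.22). The 4 genes that were lower in microglia were Ifitm3 (-6.20 ± 0.23, adjusted p = 2.71e-14), Gbp2 (-1.37 ± 0.16), Isg20 (-1.20 ± 0.23) and Ifitm1 (-0.35 ± 0.15). Scaling by library totals alone moved the median of all genes by -0.28 and left 26 genes higher in microglia, so the smaller of these differences depend on the scaling.

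After treatment this order was turned for many genes. With Aβ42 fibrils 3 of 40 genes were higher in every microglia library than in every astrocyte library (background 32.2%) and 26 were lower (35.5%), and with Aβ40 fibrils 9 were higher (36.7%) and 24 were lower (41%). The median difference between microglia and astrocytes, on log2 of group mean CPM plus 0.5, was 1.40 in control, -0.57 with Aβ42 and -0.46 with Aβ40 fibrils, and over all 11581 genes it was -0.0017, -0.0067 and -0.0607. Without regard to sign it was 1.47 in control, 0.642 with Aβ42 and 0.603 with Aβ40 fibrils, against 0.80, 0.65 and 0.78 over all genes. These group levels are given as a description without a test, and cell type and handling or sequencing cannot be told apart here either.

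The fibrils did not differ detectably from each other in astrocytes for any of these genes. With Aβ42 against Aβ40 fibrils 0 of 39 were higher and 0 were lower by edgeR (background 0.0599% and 0.0257%), 0 at an unadjusted p under 0.05 and 0 with DESeq2, and 0 were 5-fold higher (background 0.00855%), although 1 was higher when the 2 groups were fitted alone. The log2 differences ran from -0.20 for Ifitm1 to 0.36 ± 0.17 for Gbp4 (adjusted p = 0.859), which was at 169, 177 and 181 CPM with Aβ42 and 135, 139 and 134 with Aβ40 fibrils. The libraries of Gbp4 did not overlap, which was so for 4 genes above and 1 below (background 9.13% and 9.75%). A two-sided exact permutation test of 3 libraries against 3 cannot go below p = 0.1.

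In microglia, 13 of 39 genes were lower and 2 were higher with Aβ42 than with Aβ40 fibrils (background 9.01% and 11.3%), all by less than 2-fold. Eif2ak2, whose product stops translation, was at 251, 239 and 262 CPM in control, 281, 239 and 261 with Aβ42 and 409, 379 and 432 with Aβ40 fibrils, a log2 difference between the fibrils of -0.66 ± 0.11 (adjusted p = 0.00757). The control and Aβ42 libraries overlapped, and the Aβ40 libraries were above both. For Ifit2, given above, the difference was -0.74 ± 0.11 (adjusted p = 0.00583). Trim21 (-0.80 ± 0.14, adjusted p = 0.0106), Ifih1 (-0.60 ± 0.11, adjusted p = 0.011) and Dtx3l (-0.76 ± 0.15, adjusted p = 0.0144) came next. Dtx3l was at 45.8, 32.6 and 45.4 CPM in control microglia, 64.2, 52.2 and 59.6 with Aβ42 and 106, 95.2 and 88.5 with Aβ40 fibrils, so each group was above the one before. The others were Gbp5 (-0.83), Ifitm1 (-0.68), Ddx58 (-0.64), Gbp2 (-0.56), Parp14 (-0.56), Gbp4 (-0.55), Trim25 (-0.52) and Irgm (-0.38), and the genes higher with Aβ42 were Ifi27 (0.79) and Ifitm2 (0.36). Ifi27 was at 344, 654 and 739 CPM with Aβ42 and 344, 352 and 295 with Aβ40 fibrils. Its Aβ42 replicate 1 thus lay among the Aβ40 libraries. Ifi27 and Ifitm2 were each called in 2 of 9 fits that left out 1 library. Of the 6 GTPases, 4 were lower with Aβ42 than with Aβ40 fibrils and none was higher. Libraries did not overlap for 17 genes below (background 14.5%) and 1 above (14.8%).

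These calls depended on single libraries. The number of genes lower with Aβ42 was 2 when Aβ42 replicate 2 was left out and 3 when Aβ42 replicate 3 was. It was 2 when Aβ40 replicate 1 was left out, 4 when either Aβ40 replicate 2 or replicate 3 was, and 4 when the 2 groups were fitted alone. Without Aβ42 replicate 1 it was 15, and 7 genes were then higher with Aβ42. The number higher was 0 without control replicate 1 or 3, and 0 without any 1 of the other Aβ42 or Aβ40 replicates. Eif2ak2 and Ifit2 were called in all 9 fits that left out 1 library, with log2 differences of -0.74 to -0.59 for Eif2ak2 and -0.81 to -0.69 for Ifit2, followed by Ifih1 in 7 fits and Trim21 in 6. The sign of every one of the 15 differences stayed the same in these 9 fits. Aβ42 replicates 2 and 3 held 22274367 and 17687416 counts, Aβ42 replicate 1 held 2613723, and the Aβ40 libraries held 4104702, 4425805 and 2271834. Fibril and depth were thus not independent in microglia. For Gbp5, Aβ42 replicate 1 (181 CPM) lay nearer the Aβ40 libraries than replicates 2 and 3 (111 and 117). For Ifit2 the Aβ42 libraries were at 152, 151 and 169 CPM.

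**Figure D4:**
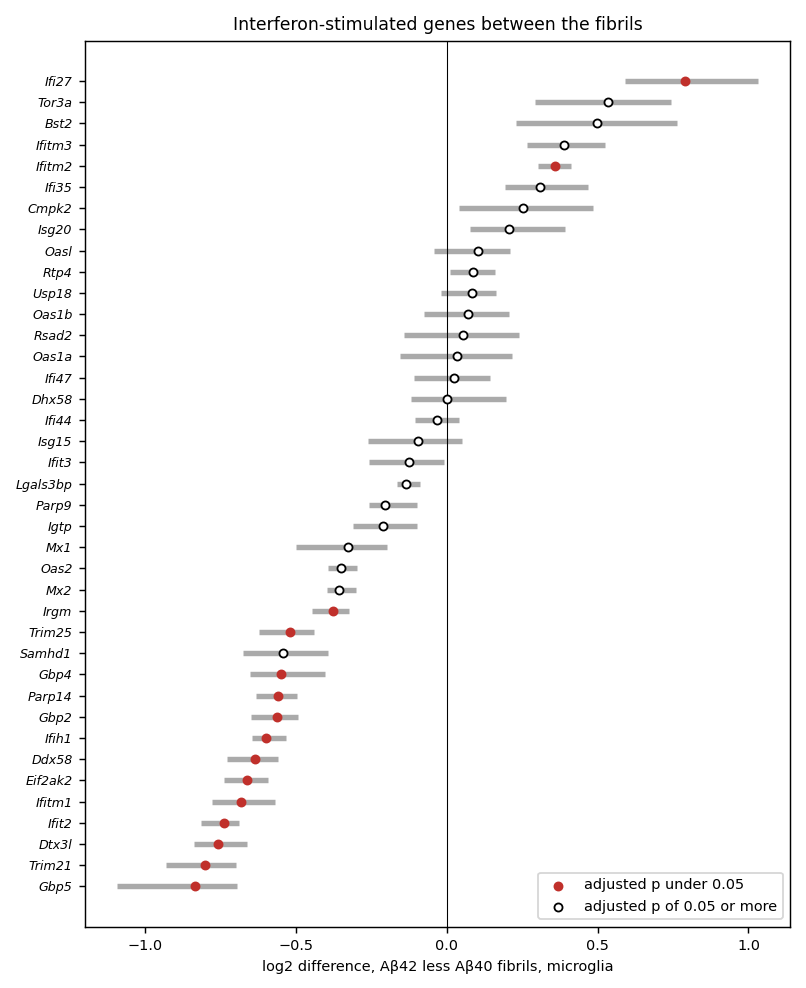
Log2 difference between Aβ42 and Aβ40 fibril-treated microglia for the 39 tested genes, with filled red points at an adjusted p under 0.05, open points otherwise, and grey bars from the lowest to the highest value over 9 fits that each left out 1 library. The lower end is held by Gbp5, Trim21, Dtx3l and Ifit2, and the bars of the 15 called genes do not cross 0.

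Upstream genes of the pathway were taken from a list of 39 ligands, receptors, kinases, transcription factors, sensors and inhibitors, of which 34 were in the tables. Of 28 tested in astrocytes 17 were higher and 3 lower with Aβ42 (background 16.5% and 20.4%), and 16 were higher and 3 lower with Aβ40 fibrils (14.9% and 18.4%). Of 29 tested in microglia 10 were higher and 14 lower with Aβ42 (background 27.1% and 26.6%), and 9 were higher and 12 lower with Aβ40 fibrils (19.6% and 21.4%). The interferon genes themselves were at or near 0. Ifnb1, which encodes interferon beta, did not exceed 0.781 CPM in any library and had too few counts to be tested. In astrocytes it had 0 counts in all control libraries, 2, 2 and 1 with Aβ42 and 6, 3 and 4 with Aβ40 fibrils. In microglia the counts were 0, 0 and 1 in control, 0, 2 and 12 with Aβ42 and 0, 3 and 0 with Aβ40 fibrils. Ifna1, Ifna4, Ifng and Ifnk did not exceed 0.0625 CPM, so a change in these 4 was not detectable at this depth. The receptor gene Ifnar1 rose in astrocytes from 134, 180 and 141 CPM to 241, 249 and 248 with Aβ42 (log2 change 0.68 ± 0.13, adjusted p = 0.00213) and 258, 214 and 232 with Aβ40 fibrils (0.61 ± 0.13, adjusted p = 0.00446). It fell in microglia from 370, 354 and 383 CPM to 289, 280 and 273 (-0.41 ± 0.09, adjusted p = 0.00256) and 241, 249 and 249 (-0.58 ± 0.09, adjusted p = 0.000283), so that the treated libraries of both cell types lay between 214 and 289 CPM. Ifnar2 was not analysed here.

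Stat2, a transcription factor of the type I interferon pathway, rose in astrocytes from 107, 115 and 127 CPM to 620, 650 and 619 with Aβ42 and 627, 610 and 644 with Aβ40 fibrils (log2 change 2.41 for each), and in microglia from 234, 177 and 226 CPM to 277, 375 and 400 (0.71) and 381, 370 and 343 (0.78). Irf9, the DNA-binding member of the complex, rose in astrocytes from 39, 42 and 42.4 CPM to 143, 136 and 138 (1.73) and 139, 143 and 142 (1.76), and in microglia from 99, 80.9 and 106 CPM to 142, 156 and 163 (0.68) and 141, 148 and 140 (0.59). Neither gene had a control library that overlapped with a treated library. Irf7, which amplifies interferon production, had the largest rise of these genes in astrocytes, from 21.7, 22.9 and 20.5 CPM to 891, 1012 and 966 with Aβ42 (5.44 ± 0.14, adjusted p = 1.66e-09) and 847, 761 and 911 with Aβ40 fibrils (5.26 ± 0.13, adjusted p = 2.26e-09). In microglia it rose from 203, 104 and 211 CPM to 488, 779 and 970 (2.09 ± 0.27, adjusted p = 3.97e-05) and 746, 665 and 604 (1.96 ± 0.27, adjusted p = 8.65e-05). All treated libraries were above all control libraries for Irf7.

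Irf8, a factor that sets microglial and macrophage identity, had the largest fall in microglia on the mean of both fibrils, from 207, 168 and 226 CPM to 12.2, 9.58 and 11.1 with Aβ42 (log2 change -4.26 ± 0.20, adjusted p = 6.44e-09) and 11.3, 20.7 and 13.2 with Aβ40 fibrils (-3.71 ± 0.21, adjusted p = 3.47e-08). Socs3, an inhibitor of cytokine receptor kinases, had the largest rise, from 3.67, 4.1 and 3.04 CPM to 221, 314 and 379 (6.39 ± 0.22, adjusted p = 7e-10) and 230, 247 and 232 (6.04 ± 0.22, adjusted p = 1.3e-09). Treated and control libraries were far apart for both genes. Zbp1, a nucleic acid sensor that is itself stimulated by interferon, went in opposite directions, from 0.785, 0.898 and 0.781 CPM in control astrocytes to 10.3, 11.7 and 8.78 with Aβ42 and 12.5, 13.5 and 12.6 with Aβ40 fibrils (3.63 ± 0.24 and 3.96 ± 0.23), and in microglia from 61.6, 35.6 and 61 CPM to 4.37, 4.47 and 6.7 (-3.33 ± 0.29) and 8.87, 8 and 2.53 (-2.91 ± 0.32). It was chosen after its values were seen. In astrocytes the largest fall was that of Tlr7, a receptor for viral RNA that microglia express, with log2 changes of -1.88 ± 0.37 and -2.61 ± 0.38 from 3.66, 13.2 and 7.87 CPM. In the same astrocyte cultures 10 of 12 microglial markers fell with Aβ42 (background 20.4%) and 11 with Aβ40 fibrils (18.4%). The part of the microglial RNA in the fall of Tlr7 was not tested.

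**Figure D5:**
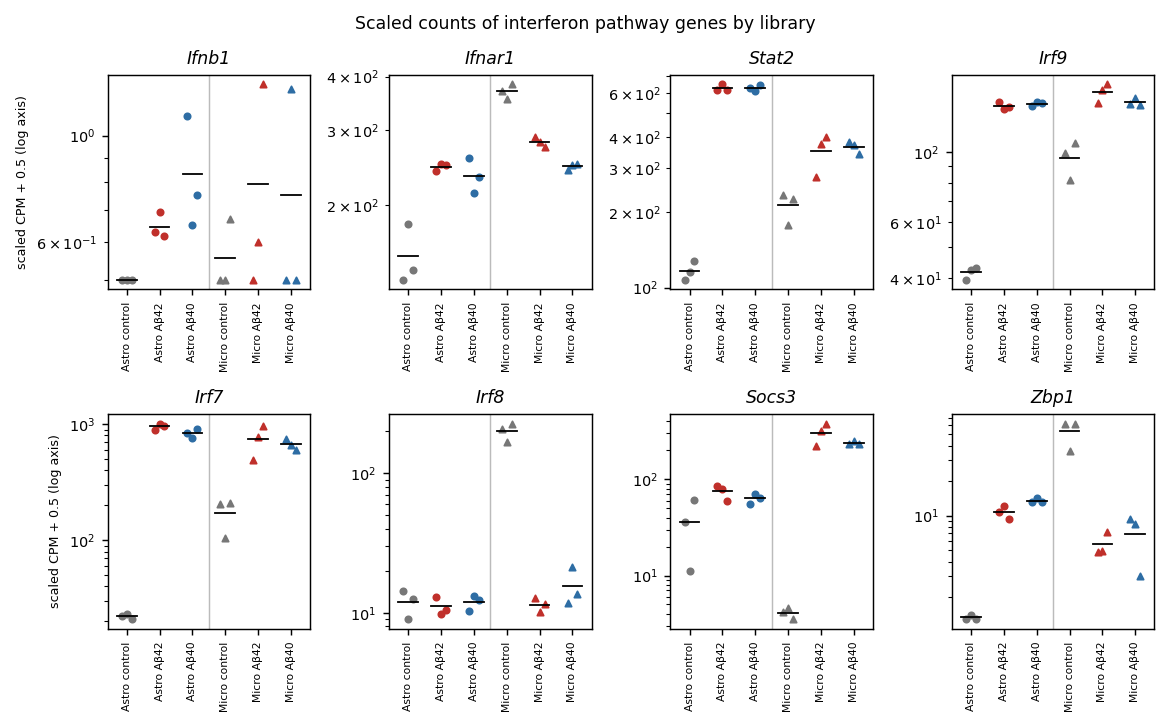
Scaled CPM plus 0.5, on log axes, of 8 genes of the interferon pathway in each library, with symbols, colours and group means as in the plot of 10 genes by library. Ifnb1 stays below 1 CPM in all libraries, Stat2 and Irf7 rise in astrocytes, Irf8 falls and Socs3 rises in microglia, and Ifnar1 and Zbp1 move in opposite directions in the cell types.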

How the data were processed

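RNA from primary rat astrocytes and microglia was isolated, made into libraries with a stranded mRNA kit and sequenced by a service company. By their methods and processing notes, the authors used STAR, Salmon, DESeq2 and the rat genome build rn5. The strand setting, the gene annotation and the treatment of reads that match several genes are not given in the sources used here. The deposited values are whole-number counts per gene, unnormalised, in 1 table for each of the 18 libraries. Lines that name no gene, 21.7% to 34.2% of the reads, were kept out of totals and tests, and no column of another sample was present. Samples were grouped by cell type and treatment from their titles, and no libraries held identical counts.

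The counts were fitted with edgeR 4.0.16 (R 4.3.3, limma 3.58.1) by its quasi-likelihood test with TMM scaling, the filterByExpr filter and Benjamini-Hochberg adjustment over all tested genes, and a gene was called at an adjusted p under 0.05. The 9 libraries of a cell type shared 1 fit, and all 18 shared 1 fit for the interaction and for control microglia against control astrocytes. Log2 changes are fitted values and their errors are standard errors. DESeq2 1.42.0, other scalings, filters and thresholds, a replicate block, the compared groups alone and the omission of each library were alternatives. The scripts were tested on simulated data with known changes.

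The genes, role groups, marker lists, pathway list and motifs were chosen with earlier results of these data known. Values by library are given for the genes with the largest and smallest change of each role group in each cell type, those lower than in control, the 5 with the smallest p between fibrils and between cell types, and Gbp2. For the pathway they are given for Ifnb1, Ifnar1, Stat2, Irf9, Irf7 and the genes with the largest rise and fall, and 1 further gene of that list is not reported here. Depth differed up to 9.8-fold within a cell type, so low genes of shallow libraries are the least precise. Summed levels of other markers were 1219 to 2415 CPM in astrocyte and 2163 to 3211 in microglia libraries for the oligodendrocyte lineage, 210 to 465 and 253 to 425 for neurons, 119 to 201 and 51.3 to 174 for fibroblasts, 6.13 to 9.88 and 47.2 to 210 for endothelium, and at most 1.01 for lymphocytes. These ranges pool control and treated libraries. In microglia the fibroblast sum was 51.3 to 65.6 in control, 147 to 174 with Aβ42 and 133 to 136 with Aβ40 fibrils. The endothelial sum there was 202 to 210, 47.2 to 69.9 and 99.5 to 126 in that order. In astrocytes the oligodendrocyte sum was 1615 to 2415, 1219 to 1285 and 1265 to 1302. The neuron sum fell in treated astrocytes and rose in treated microglia. The part of these shifts in the changes above was not tested.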

Additional observations from a re-analysis of the deposited data

Results flagged for a closer look

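The response to fibrils differed between the cell types by the interaction test. With Aβ42 fibrils the log2 change in microglia was below that in astrocytes for 35 of 40 genes and above it for 1, where 17.9% and 19.3% of 11581 tested genes differed in these directions, and with Aβ40 fibrils for 36 and 1 (16.5% and 16%). The differences with the smallest p-values with Aβ42 fibrils were -5.89 for Ifit2, -4.98 for Ifi47, -6.455 for Mx1, -6.39 for Oas2 and -5.44 for Ifit3, and Ifitm3, whose larger rise in microglia passed the test, differed by 3.90. With Aβ40 fibrils they were -5.09 for Ifi47, -5.14 for Ifit2, -6.05 for Mx1, -4.13 for Dhx58, -5.94 for Oas2 and 3.53 for Ifitm3. Both fibrils are set against the same control libraries. Groups of 3 libraries were too small for a test of whether 1 library stood apart from the others.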

How the results depend on the processing

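Of the counts of genes called, 421 alternative values stayed within 1.5 times the value given and 23 did not, all 23 in microglia except 1. The 421 include the counts set against the detection limit, which could not differ. With the compared groups alone, 1 gene was higher with Aβ42 than with Aβ40 in astrocytes, 4 were lower than control with Aβ40 in microglia, and 0 were higher and 4 lower with Aβ42 than with Aβ40 in microglia. At 2-fold or more, 2 genes were lower than control with Aβ42 in microglia and 0 differed in either direction between the fibrils. Thinning every library to the smallest of its cell type, an alternative chosen after seeing the data, left 3 genes lower with Aβ42 in microglia and turned the change of Trim25 with Aβ42 in microglia, which had not passed the test, to 0.081. It also ended the calls of Trim21 with both fibrils and of Dtx3l and Ifitm1 with Aβ42 in microglia, and those of Ifitm1 and Samhd1 with Aβ40 in astrocytes. Leaving out 1 library gave 2 to 4 genes lower with Aβ40 in microglia, and 0 to 7 higher and 2 to 15 lower between the fibrils. Changes in microglia that had not passed the test also turned, that of Mx1 with Aβ42 running from -0.13 without control replicate 2 (-0.094 without Aβ42 replicate 3) to 0.22, that of Ifitm1 with Aβ40 from -0.17 to 0.0047 without control replicate 2 and that of Eif2ak2 with Aβ42 from -0.044 without Aβ42 replicate 1 to 0.11. Apart from the smaller number of samples or the threshold where those were changed, the cause was not tested. The labels do not say whether replicate numbers pair the samples. Deviations of libraries with the same number correlated at -0.754 to 0.486 in astrocytes and -0.254 to 0.296 in microglia, over 0.1 in 2 and 1 of 9 pairs. Deviations from the mean of 3 libraries are bound to each other, so these values cannot settle whether the samples were paired. With the replicate number as a block, 37 and 38 genes were higher in astrocytes with Aβ42 and Aβ40, 25 and 28 in microglia, 5 and 2 were lower in microglia, and 0 were higher and 9 lower between the fibrils in microglia. No gene that rose 5-fold had every control library at or under 3 counts. Setting folds against the detection limit therefore could not change the numbers of these genes, at 24, 25, 6 and 5, and was no test of them. Scaling by library totals left 26 genes higher in control microglia than in control astrocytes. Genes under 0.135 to 1.32 CPM, the range of the detection limit in microglia, are beyond what these depths can show.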
